A study of Mus musculus with 12 samples.

Results

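Helper T cells carry the full set of genes that write and copy DNA methylation, and these were followed while the microRNA miR-29b was added to cells short of microRNAs or the miR-29 family was blocked in wild-type cells. The members were all non-control probes of the array whose RefSeq accession mapped to Dnmt1, Dnmt3a, Dnmt3b, Dnmt3l or Uhrf1. The rule found 8 of 41174 probes, for 5 of the 17178 genes that could be named. Dnmt3a had 3 probes, Uhrf1 had 2, and the other genes had 1 each. Each of the 8 probes was well above background on all 12 arrays and passed the filter on dim probes, which left 32308 probes in the tests.

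Each of the 12 samples, 3 in each of 4 groups and all from C57BL/6 mice aged 7 weeks, was hybridised to a single-channel Agilent array of the mouse transcriptome. DGCR8-deficient helper T cells, which lack the partner of Drosha that most microRNAs need for processing, received a control miRNA or miR-29b. Wild-type helper T cells received control inhibitors or miR-29 inhibitors. In all groups the cells were activated through CD3 and CD28 for 65 hours, kept in IL-2 for 48 hours, electroporated on days 1 and 4, and harvested on day 5, which was 24 hours after the last transfection. Each genotype had 3 mice, numbered 2, 3 and 4, and each mouse gave 1 array of either treatment. The sources used here do not say how Dgcr8 was deleted. P-values of the main fit measure the spread among arrays within groups, 1 array per mouse, and take no account of arrays that share a mouse. For comparisons within a genotype, those with a mouse block measure the spread of the differences within mice. That spread is pooled over the 6 mice of both genotypes, so the miR-29b comparison also draws on the wild-type mice.

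A level here is a log2 signal minus the array's own 75th percentile, and differences are log2 differences between group means with their SE from limma (n = 3 per group). The arrays detected 27407 to 32251 probes well above background. All 8 markers of helper T cells were well above background on the 12 arrays. Dgcr8 itself ranged from -1.25 to -0.15 in the 6 deficient samples and from -0.16 to 1.01 in the 6 wild-type samples, and its difference between the controls was -1.06 ± 0.39 (limma, adjusted p = 0.0961). Whether that probe falls inside the deletion is unknown. Both arrays of DGCR8-deficient mouse 3 stood apart in Y-linked transcripts, with median levels of -8.58 and -7.45 against -2.09 or higher on the other 10 arrays. The miR-29b array of this mouse also had 1458 spots marked as outliers by the scanner software, against 68 to 193 on the other 11 arrays, and the most probes above background. The 12 arrays lay on 4 slides and were scanned on 2 days, with both arrays of a mouse on the same slide and day.

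DNA methylation in mammals is set and kept by different enzymes. Dnmt3a and Dnmt3b place new methyl groups on CpG sites, and Dnmt3l, which has no catalytic activity of its own, stimulates them in germ cells. Dnmt1 copies the pattern onto the new strand at replication, guided by Uhrf1, a protein that recognises CpG sites methylated on a single strand. In helper T cells, DNA methylation is known to hold cytokine genes of other lineages silent. The transcripts of Dnmt3a and Dnmt3b are known targets of the miR-29 family.

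The mature miR-29 sequences, from RefSeq on GRCm38.p6, are shown because the added miR-29b and the blocked family share 1 seed, bases 2 to 8 from the 5′ end, printed in capitals.
mmu-miR-29a-3p: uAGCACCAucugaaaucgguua
mmu-miR-29b-3p: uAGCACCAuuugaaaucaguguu
mmu-miR-29c-3p: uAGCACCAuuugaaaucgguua
Of 1679 mature mouse miRNAs listed, these 3 carried the seed AGCACCA, whose complementary site in a transcript reads UGGUGCU. Against miR-29b-3p, the first different base was at position 10 in miR-29a-3p and at position 18 in miR-29c-3p. The miR-29b-3p strand is encoded at chr6:31063025-31063047 on the minus strand (Mir29b-1) and at chr1:195037091-195037113 on the plus strand (Mir29b-2).

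Both de novo methyltransferases fell when miR-29b was added to DGCR8-deficient cells, Dnmt3b by 3.98-fold and Dnmt3a by 3.52- and 2.05-fold on 2 of its 3 probes. Dnmt3l and Uhrf1 did not pass the test. Dnmt1 did not pass in the unpaired fit (adjusted p = 0.956) and fell when the arrays of a mouse were paired (limma with a mouse block, adjusted p = 0.0354, -0.46 in both fits). Of the 8 probes, 3 fell and 0 rose at a limma adjusted p below 0.05, where 0.613% of all tested probes fell and 0.356% rose, or 0.969% in all. The mouse block called 5 of the 8, all lower, where it called 6.86% of all probes lower. In bulk RNA, fewer cells of a type and less RNA per cell cannot be told apart.

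**Figure D1:**
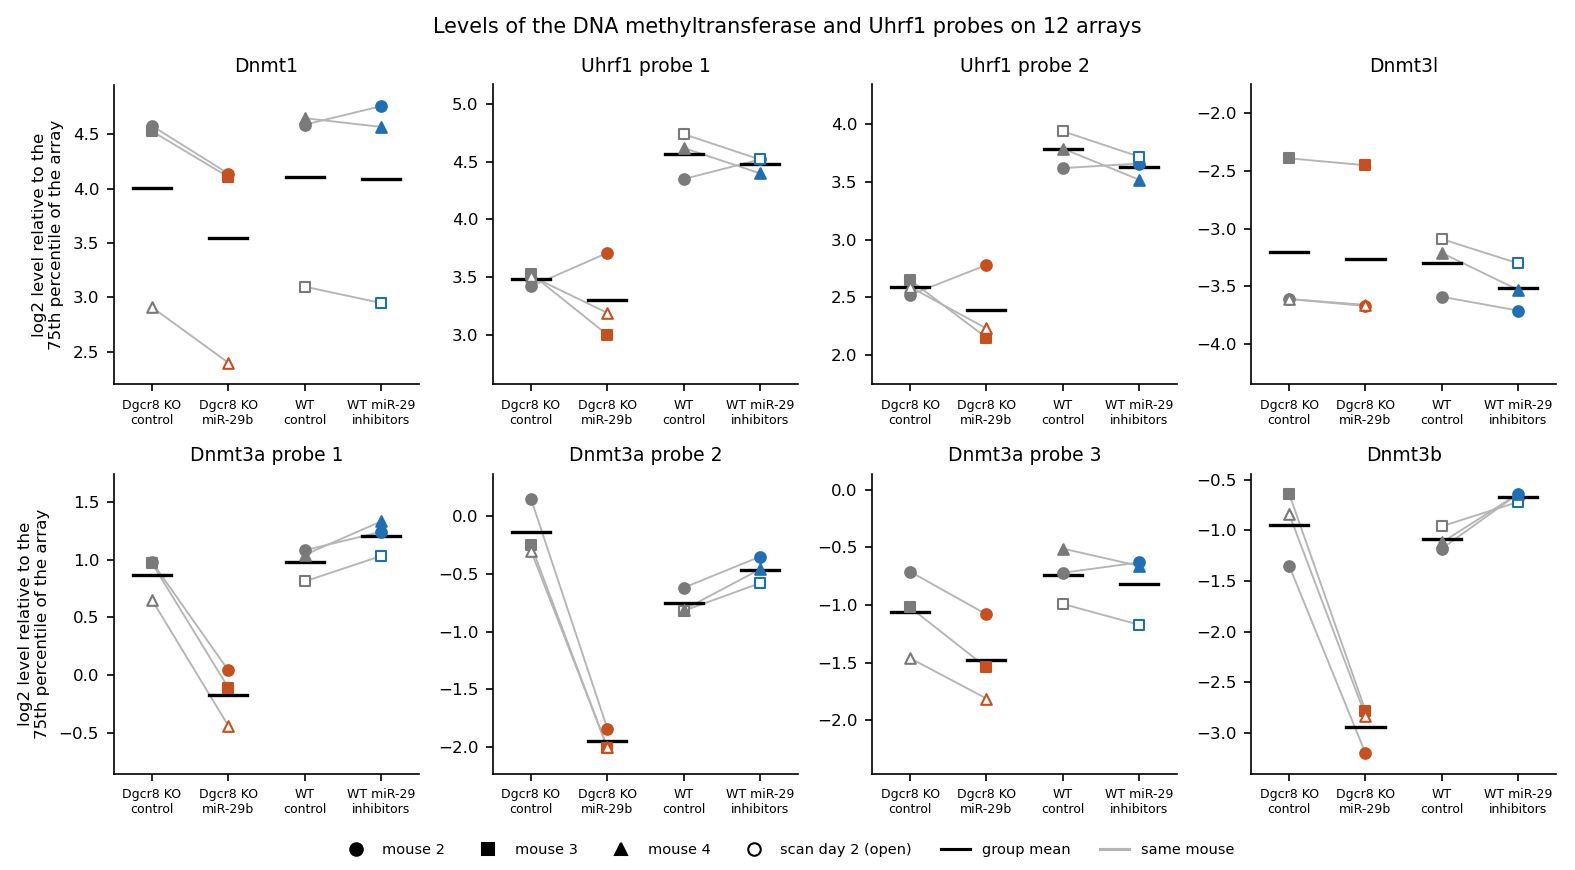
Log2 level of each probe (y axis, signal over the array's 75th percentile) in the 4 groups (x axis), with 1 point per array, grey lines joining the arrays of 1 mouse, black bars for group means and open symbols for arrays of scan day 2. The miR-29b arrays lie below all other arrays for Dnmt3b and for Dnmt3a probes 1 and 2, all DGCR8-deficient arrays lie below the wild type for Uhrf1, and the 4 open symbols lie lowest for Dnmt1.

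Dnmt3b (probe A_51_P341540, NM_001003961) had levels of -1.35, -0.64 and -0.84 on the control arrays of DGCR8-deficient mice 2, 3 and 4. The miR-29b arrays of the same mice stood at -3.20, -2.78 and -2.83. Every miR-29b array was lower than every control array, as for 3 of the 8 members against 6.04% of all probes, and the groups were separated by more than the range within either of them. The difference was -1.99 ± 0.21 (limma, adjusted p = 0.00555), with -1.85, -2.14 and -1.99 within the 3 mice. By size it was the 39th largest fall among the 32308 probes.

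Dnmt3a was read by 3 probes that did not move alike. Probe 1 (A_52_P76146) is annotated to NM_153743, the accession of the shorter Dnmt3a2 transcript, and probes 2 and 3 (A_52_P30497 and A_52_P169048) to NM_007872, that of the full-length form. The annotation does not say which other Dnmt3a transcripts each probe also detects.

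Dnmt3a probe 2 had control levels of 0.15, -0.25 and -0.30 in DGCR8-deficient mice 2, 3 and 4, and miR-29b levels of -1.84, -2.01 and -2.0. The groups did not overlap, and the 3 miR-29b arrays lay close together. The difference was -1.82 ± 0.17 (limma, adjusted p = 0.00487), with -1.99, -1.76 and -1.70 within the mice.

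Dnmt3a probe 1 had control levels of 0.98, 0.97 and 0.65 and miR-29b levels of 0.04, -0.11 and -0.44. Here too every miR-29b array was below every control array, although the fall was smaller than on probe 2 in each mouse, by 1.05, 0.68 and 0.62 in mice 2, 3 and 4. The difference was -1.04 ± 0.19 (limma, adjusted p = 0.0369), with -0.94, -1.08 and -1.09 within the mice. It stayed lower but no longer passed whichever of the 12 arrays was left out (adjusted p up to 0.152).

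Dnmt3a probe 3 overlapped between the groups, with control levels of -0.71, -1.02 and -1.46 and miR-29b levels of -1.08, -1.54 and -1.81. All 3 mice had the lower value with miR-29b, at -0.37, -0.52 and -0.34. The difference of -0.41 ± 0.27 did not pass (limma, adjusted p = 0.698, 95% interval -1.01 to 0.19), but blocking on the mouse gave an adjusted p of 0.0473. In the 3 mice the miR-29b change of probe 2 minus that of probe 3 was -1.62, -1.24 and -1.36. Over the 12 arrays, probe 3 correlated with probe 1 at r = 0.833 and with probe 2 at r = 0.615, and probe 1 with probe 2 at r = 0.875, as a description over arrays that share mice and slides.

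The calls for Dnmt3b and Dnmt3a probe 2 held without any 1 of the 12 arrays (adjusted p up to 0.0306 and 0.0292). Without both arrays of mouse 3 the falls were -1.92 for Dnmt3b, -1.85 for Dnmt3a probe 2 and -1.02 for Dnmt3a probe 1, and the adjusted p-values were 0.0514, 0.0514 and 0.189. In a fit of the 6 arrays of this comparison alone, 0 of all 32308 probes passed (limma, adjusted p = 0.301 for Dnmt3b and Dnmt3a probe 2 and 0.421 for probe 1), so these calls also draw on the spread among the wild-type arrays.

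Markers of other cells were read on the same arrays. The summed level of the 6 B cell markers was 2.92 to 3.47 on the control arrays and 3.03 to 3.60 with miR-29b, and 0 of 6 passed. That of the 5 NK cell markers was 0.14 to 0.72 and -0.83 to -0.60, with 1 of 5 lower. Most of this sum was Eomes, at -0.13, 0.46 and 0.02 on the control arrays and -1.05, -0.99 and -1.05 with miR-29b. The other NK cell markers stood at -2.56 or lower on these arrays, so the sum mainly reads 1 gene. The 8 helper T cell markers summed to 7.89 to 8.10 and 8.34 to 8.56, with 0 of 8 past the threshold (2 higher, Trat1 and Lck, under the mouse block). Of 5 myeloid markers tested 0 passed (1 higher, Adgre1, under the block), and of 3 erythroid and platelet markers 0 passed (1 lower, Hba-a1, under the block). The platelet genes Ppbp and Pf4 differed by -7.37 and -7.68 in mouse 4 and by -0.27 and 1.94 in mouse 2. Neither gene was well above background on either array of mouse 2 or on the miR-29b array of mouse 4. In mouse 3 Ppbp stood at -4.96 on the control and -5.02 on the miR-29b array, and Pf4 at -3.52 and -3.03. The part of these markers or their cells in the methyltransferase differences was not tested.

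Dnmt3l (A_51_P496720, NM_019448) stood at -3.61, -2.39 and -3.61 on the control arrays and -3.67, -2.45 and -3.66 with miR-29b. Both arrays of DGCR8-deficient mouse 3 were above the other 10, which also held for 11.5% of all probes. Within mice the change was -0.06, -0.06 and -0.05. The difference was -0.06 ± 0.40 (limma, adjusted p = 1, 95% interval -0.95 to 0.83).

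The maintenance pair did not pass in the unpaired comparison of miR-29b with control. Uhrf1 probe 1 (A_52_P314705, NM_010931) had control levels of 3.42, 3.53 and 3.51 in DGCR8-deficient mice 2, 3 and 4. With miR-29b the levels were 3.71, 3.00 and 3.19, so the mice went in different directions, at 0.29, -0.52 and -0.32. The difference was -0.18 ± 0.20 (limma, adjusted p = 0.902, 95% interval -0.64 to 0.27). Uhrf1 probe 2 (A_51_P491742, NM_010931) gave -0.20 ± 0.20 (adjusted p = 0.867) with 0.26, -0.50 and -0.36 within mice, and its levels correlated with those of probe 1 at r = 0.997 over the 12 arrays.

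Dnmt1 (A_51_P195573, NM_010066) had control levels of 4.58, 4.53 and 2.91 in DGCR8-deficient mice 2, 3 and 4, and miR-29b levels of 4.14, 4.11 and 2.40. Each mouse had the lower level with miR-29b, and both arrays of mouse 4 were far below those of the other mice. The within-mouse changes of -0.45, -0.42 and -0.52 lay close together, whereas the group means differed by -0.46 ± 0.70 (limma, adjusted p = 0.956). Blocking on the mouse, the same difference had an adjusted p of 0.0354, and a block for scan day gave an adjusted p of 0.0285.

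The Dnmt1 level split by scan day in all groups. The 4 arrays of day 2, from DGCR8-deficient mouse 4 and wild-type mouse 3, stood at 2.40 to 3.10, and the 8 arrays of day 1 at 4.11 to 4.76. Day 2 arrays were below all day 1 arrays for 7.45% of all probes. Within groups the day 2 array differed from the mean of the others by -1.65, -1.73, -1.51 and -1.71. All day 2 arrays shared 1 slide and came from 2 mice, so mouse, slide and day cannot be told apart. No other member probe was split by day, and Uhrf1 probe 1 had medians of 4.03 on day 1 and 4.02 on day 2.

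Counting direction alone, 6 of the 8 probes were lower with miR-29b in all 3 mice, against 22.5% of all probes. With the mouse as a block, which uses only differences within mice, 5 of the 8 probes passed, namely Dnmt1, Dnmt3b and the 3 Dnmt3a probes. That fit called 13.1% of all probes, with 6.24% higher.

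**Figure D2:**
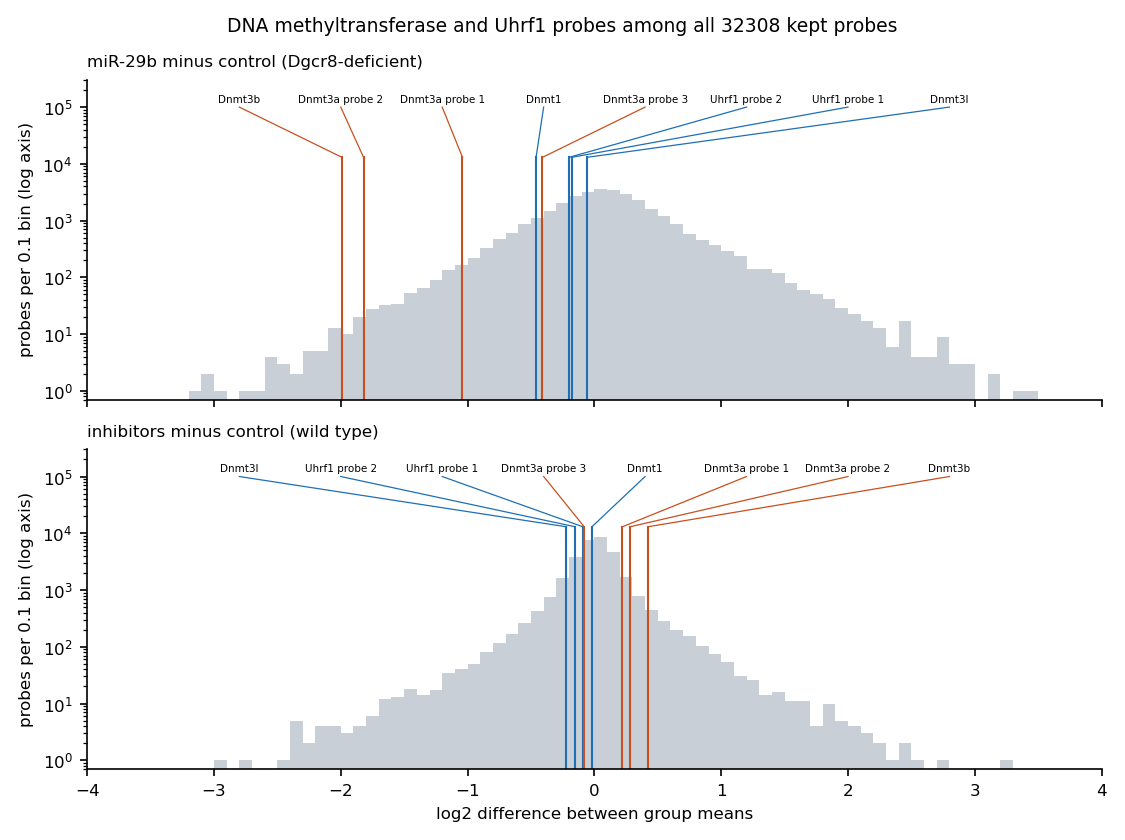
Number of probes per 0.1 bin of log2 difference (y axis, log scale) over all 32308 tested probes, for miR-29b minus control in DGCR8-deficient cells (top) and inhibitors minus control in wild-type cells (bottom), with a line at each member probe (orange for Dnmt3a and Dnmt3b, blue for the others). Dnmt3b at -1.99 and Dnmt3a probe 2 at -1.82 lie in the lower tail of the top panel, and at 0.42 and 0.28 in the bottom panel.

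Blocking miR-29 in wild-type cells gave small positive differences for the same methyltransferase probes, none of which passed. The limma test called 0 of 32308 probes in this comparison, so 0 of the 8 probes passed. In this fit 127 probes (0.393%) had an unadjusted p below 0.05, none of them a member. That is below the share of 0.05 that uniform p-values would give. The fit counts differences between mice as spread, so its 0 calls do not show that nothing changed. With the mouse as a block 0 probes passed as well. Unadjusted p-values of that fit were 0.00797 for Dnmt3b, 0.0261 for Dnmt3a probe 2 and 0.0427 for probe 1, all higher (limma). They were 0.0475 for Dnmt3l, which was lower, and 0.414 or more for the other members. The share of all probes with such values in that fit was not counted.

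Dnmt3b had control levels of -1.18, -0.96 and -1.12 in wild-type mice 2, 3 and 4, and levels of -0.64, -0.72 and -0.64 with the inhibitors. Every inhibitor array was above every control array, and the within-mouse differences were 0.54, 0.24 and 0.47. The difference was 0.42 ± 0.21 (limma, unadjusted p = 0.0738, adjusted p = 1, 95% interval -0.05 to 0.89).

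Dnmt3a probe 2 had control levels of -0.62, -0.82 and -0.81 and inhibitor levels of -0.35, -0.58 and -0.46, again without overlap. The difference was 0.28 ± 0.17 (limma, adjusted p = 1), with 0.27, 0.24 and 0.34 within mice. These 2 probes were the members whose groups did not overlap, which held in the higher direction for 1.58% of all probes.

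Dnmt3a probe 1 went from 1.08, 0.81 and 1.04 to 1.24, 1.03 and 1.33, with overlap and a difference of 0.22 ± 0.19. It was higher in all 3 mice, as were Dnmt3b and Dnmt3a probe 2, against 13.2% of all probes. Dnmt3a probe 3 differed by -0.08 ± 0.27 and was higher in 1 mouse only.

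The other members stayed within their spread. Dnmt1 had control levels of 4.59, 3.10 and 4.65 and inhibitor levels of 4.76, 2.95 and 4.57 (difference -0.02 ± 0.70), and the 2 Uhrf1 probes differed by -0.09 ± 0.20 and -0.15 ± 0.20. Dnmt3l went from -3.59, -3.09 and -3.21 to -3.71, -3.30 and -3.53, lower in all 3 mice as for 8.92% of all probes, with a difference of -0.22 ± 0.40. The adjusted p was 1 for each of them (limma).

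Adding miR-29b in DGCR8-deficient cells and blocking miR-29 in wild-type cells were compared by the difference between both effects. Genotype differs between the effects. For Dnmt3b and Dnmt3a probe 2 the larger part was the miR-29b effect (-1.99 and -1.82). The inhibitor effects of 0.42 and 0.28 did not pass, so a call here does not by itself show opposite effects. The difference between both effects was -2.41 ± 0.30 for Dnmt3b (limma, adjusted p = 0.0417) and -2.10 ± 0.25 for Dnmt3a probe 2 (adjusted p = 0.0309). These were 2 of 12 probes called in all, each in the lower direction, or 0.0371% of those tested, and leaving out 1 array took the 12 to between 0 and 9, with 0 without DGCR8-deficient control 4, wild-type control 2 or 4, or inhibitor array 2 or 4. Dnmt3a probe 1 gave -1.26 ± 0.27 (adjusted p = 0.193, and 0.0209 with the mouse as a block). Dnmt3b and Dnmt3a probes 1 and 2 were lower in 3 of 3 mice with miR-29b and higher in 3 of 3 with the inhibitors, a pattern of 3.43% of all probes. The calls were close to the threshold: the direction held, but without any 1 array 0 or 1 of the 2 probes passed, and without both arrays of DGCR8-deficient mouse 3 the adjusted p was 0.122 for both.

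**Figure D3:**
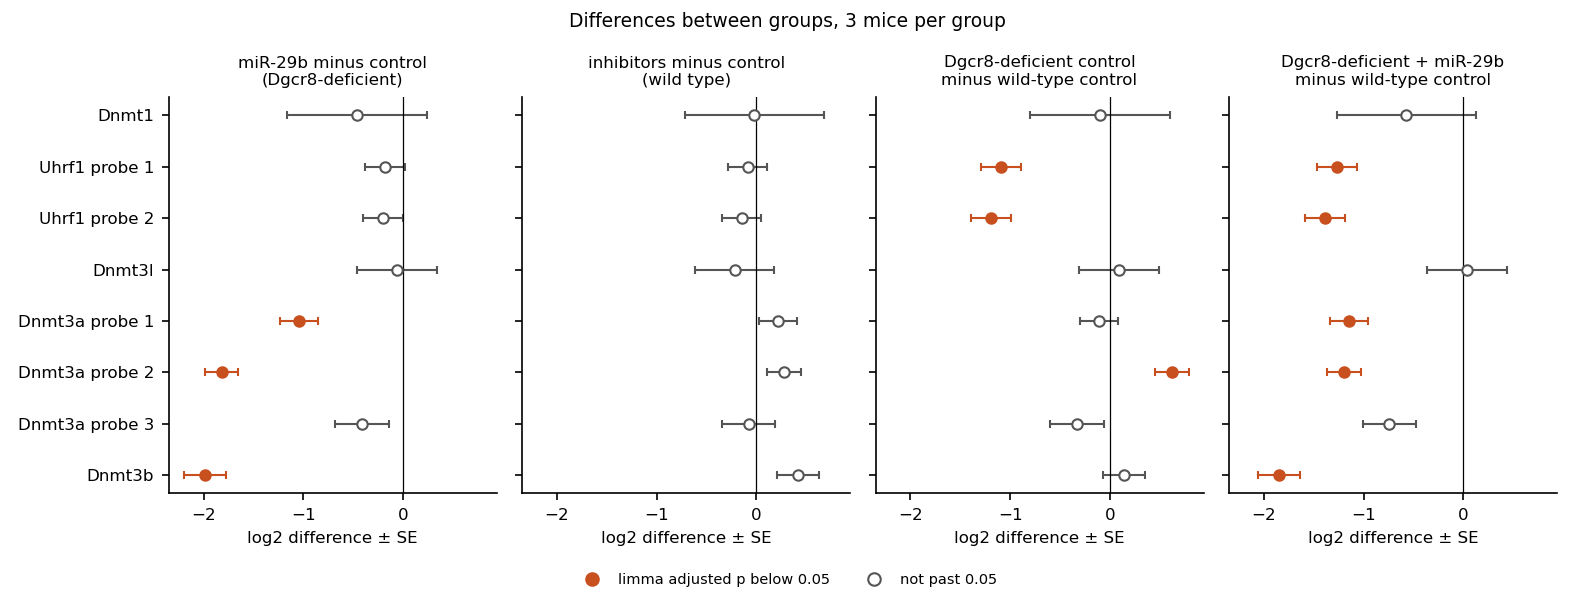
Log2 difference ± SE of each probe (x axis) in 4 comparisons of group means with 3 mice per group, with filled orange symbols for limma adjusted p below 0.05. Dnmt3b and 2 Dnmt3a probes are filled with miR-29b, no probe is filled with the inhibitors, and both Uhrf1 probes are filled in the comparison of control cells.

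DGCR8-deficient control cells had less Uhrf1 than wild-type control cells, by 2.13-fold on probe 1 and 2.29-fold on probe 2. One Dnmt3a probe was 1.53-fold higher, and Dnmt1, Dnmt3b, Dnmt3l and the other Dnmt3a probes did not pass. Of the 8 probes 2 were lower and 1 higher, where 9.09% of all probes were called lower, 7.99% higher and 17.1% either way. The same 3 probes had groups that did not overlap, as for 18% of all probes in the lower and 14.7% in the higher direction. The control oligonucleotide differed with the genotype, a control miRNA in one and control inhibitors in the other, so the 2 cannot be told apart.

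Uhrf1 probe 1 stood at 3.42, 3.53 and 3.51 in the DGCR8-deficient controls and at 4.35, 4.74 and 4.62 in the wild-type controls. The difference was -1.09 ± 0.20 (limma, adjusted p = 0.00477). Probe 2 stood at 2.52, 2.65 and 2.59 against 3.62, 3.94 and 3.79, a difference of -1.19 ± 0.20 (adjusted p = 0.00238). These fits take the 2 arrays of a mouse as independent. With the mouse as a random effect the SE rose to 0.29 and 0.28 for probes 1 and 2 (limma, adjusted p = 0.0309 and 0.0153). For both probes all 6 DGCR8-deficient arrays, with or without miR-29b, were below all 6 wild-type arrays, as for 10.9% of all probes. On slide 2 and slide 4, which held both genotypes, the control difference was -0.94 and -1.24 for probe 1 and -1.10 and -1.35 for probe 2. In the 8 arrays of scan day 1 alone, probe 1 gave -1.02 with an adjusted p of 0.0524.

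Dnmt3a probe 2 was higher in the DGCR8-deficient controls, at 0.15, -0.25 and -0.30 against -0.62, -0.82 and -0.81. The groups did not overlap, and the difference was 0.62 ± 0.17 (limma, adjusted p = 0.035), with 0.77 and 0.52 within slides 2 and 4. With the mouse as a random effect the adjusted p was 0.0477 (limma). The call was lost without any 1 of 7 arrays, namely DGCR8-deficient control 2 or 3, any wild-type control, or inhibitor array 2 or 4 (adjusted p up to 0.125). Probes 1 and 3 of the same gene gave -0.11 ± 0.19 and -0.33 ± 0.27 and did not pass (adjusted p = 0.803 and 0.516).

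Dnmt3b differed by 0.14 ± 0.21 between the controls (limma, adjusted p = 0.763, 95% interval -0.33 to 0.61). Dnmt1 differed by -0.10 ± 0.70 and Dnmt3l by 0.09 ± 0.40. These intervals reach to -1.66 and 1.45 for Dnmt1, so a change of the size seen for Uhrf1 was not detectable for it without a block.

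B cell markers moved with genotype: their summed level was 2.92 to 3.47 in the DGCR8-deficient controls and -1.46 to -0.86 in the wild-type controls, with 5 of 6 higher, and 0 of the 6 were below background on every array. Pax5, of the same list, overlapped between the controls, at -5.60, -5.69 and -5.23 against -5.09, -5.67 and -5.76. The summed level of the 5 NK cell markers was 0.14 to 0.72 against -3.47 to -2.62, with 2 of 5 higher and 3 not past the threshold. Eomes carried most of this sum in the DGCR8-deficient controls, at -0.13, 0.46 and 0.02 against -4.18, -4.68 and -4.60 in the wild type. Klrb1c overlapped, at -4.09, -2.56 and -3.51 against -4.38, -4.49 and -3.70. The 8 helper T cell markers summed to 7.89 to 8.10 and 8.14 to 8.44, with 1 lower, the T cell adaptor gene Trat1 (-3.96 ± 0.50, limma adjusted p = 0.000529). Of 5 myeloid markers tested 1 was lower, the macrophage gene Adgre1 (-2.72 ± 0.50, adjusted p = 0.00442), and of 3 erythroid and platelet markers 0 passed. More cells of a type and more RNA of these genes per cell cannot be told apart here. The part of either in the Uhrf1 difference was not tested.

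Set against wild-type controls, the cells that lacked Dgcr8 but had received miR-29b were lower in 5 of the 8 probes and higher in 0, with 10% of all probes called lower, 8.92% higher and 19% either way. Groups did not overlap for 6 of the 8, all lower, against 17.1% of all probes. This comparison shares arrays with the others. Dnmt3b differed by -1.85 ± 0.21 (limma, adjusted p = 0.000297), Dnmt3a probe 1 by -1.15 ± 0.19 (adjusted p = 0.00235) and probe 2 by -1.20 ± 0.17 (adjusted p = 0.00111). Uhrf1 probes 1 and 2 differed by -1.27 ± 0.20 and -1.39 ± 0.20 (adjusted p = 0.00192 and 0.000914, or 0.0142 and 0.0068 with the mouse as a random effect). All 5 calls held without any 1 of the 12 arrays. Dnmt3a probe 3 did not overlap between the groups but missed the threshold (-0.74 ± 0.27, adjusted p = 0.0882). Dnmt1 gave -0.57 ± 0.70 (limma, adjusted p = 0.67, and 0.573 with the mouse as a random effect). Its adjusted p was 0.00229 with scan day as a block (limma). That fit called 11904 of all 32308 probes and took the 2 arrays of a mouse as independent.

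Across the 4 groups the order of levels differed between the members. Dnmt3b was highest with the inhibitors (-0.67 ± 0.04, SD, n = 3), followed by the DGCR8-deficient control (-0.94 ± 0.37) and the wild-type control (-1.09 ± 0.12), and lowest with miR-29b (-2.94 ± 0.23). The DGCR8-deficient control overlapped with both of its neighbours, and the miR-29b group with none. Dnmt3a probe 1 fell in the order inhibitors (1.20 ± 0.15), wild-type control (0.98 ± 0.15), DGCR8-deficient control (0.87 ± 0.19) and miR-29b (-0.17 ± 0.24), with neighbours overlapping except the last. Dnmt3a probe 2 ran from the DGCR8-deficient control (-0.13 ± 0.24) through the inhibitors (-0.47 ± 0.12) and the wild-type control (-0.75 ± 0.11) to miR-29b (-1.95 ± 0.09), and no neighbours overlapped. The miR-29b arrays were below the other 9 for these 3 probes, as for 3.3% of all probes.

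Uhrf1 probe 1 ran from the wild-type control (4.57 ± 0.20) and the inhibitors (4.48 ± 0.07) to the DGCR8-deficient control (3.48 ± 0.06) and miR-29b (3.30 ± 0.36), with a gap between genotypes and overlap within them. Dnmt1 had means of 4.11 ± 0.88, 4.10 ± 0.99, 4.01 ± 0.95 and 3.55 ± 1.0 in the wild-type control, inhibitor, DGCR8-deficient control and miR-29b groups, all overlapping. Dnmt3l means of -3.20 ± 0.71, -3.26 ± 0.70, -3.30 ± 0.26 and -3.51 ± 0.21 in the DGCR8-deficient control, miR-29b, wild-type control and inhibitor groups did not differ beyond their spread, nor did those of Dnmt3a probe 3 in neighbouring groups (-0.74 ± 0.24, -0.82 ± 0.30, -1.07 ± 0.38 and -1.48 ± 0.36).

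Genes that work beside these enzymes were read from lists, each gene by its brightest kept probe. The list of cofactors and methyl donor supply, with partners of Dnmt1 at the replication fork and enzymes of the folate and methionine cycles, had 24 genes kept of 27. With miR-29b 1 of them fell and 0 rose, where 0.613% and 0.356% of all probes did. Under a mouse block 4 fell and 0 rose, against 6.86% and 6.24% of all probes. The gene that fell was Pclaf, which encodes a PCNA-binding factor of replicating cells (-1.29 ± 0.20, limma adjusted p = 0.017, with -1.18, -1.19 and -1.51 within mice). It missed the threshold without any one of 4 DGCR8-deficient arrays, namely the 3 controls and the miR-29b array of mouse 4. The median of the list was -0.22 (0.05 without the miR-29b array of mouse 4), against 0.07 over all probes. Among controls 3 of 24 were lower in DGCR8-deficient cells and 0 higher, where 9.09% and 7.99% of all probes were called: Pclaf (-1.48 ± 0.20), Shmt2, which supplies one-carbon units from serine in mitochondria (-1.34 ± 0.32), and Mthfd1, a folate cycle enzyme (-0.90 ± 0.25). Without DGCR8-deficient control 4 or wild-type control 2 or 3 the count was 1, and Mthfd1 did not pass with the mouse as a random effect (adjusted p = 0.0925). A block for the slide gave 6 lower and 2 higher, and one for the scan day 7 lower and 2 higher. These blocks also called more of all 32308 probes between controls, 11789 and 11045 against 5517 in the main fit.

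Of 14 DNA demethylation genes kept, 0 passed with miR-29b, and their median was -0.16. Under a mouse block 3 fell and 1 rose, where 6.86% and 6.24% of all probes did. Tdg, the glycosylase that removes oxidised methylcytosine, was picked out after its values were seen: its difference was -1.86 ± 0.41 (limma, adjusted p = 0.0738, and 0.00393 with the mouse as a block). Among controls 2 of the 14 were higher in DGCR8-deficient cells and 2 lower, where 7.99% and 9.09% of all probes were called. Smug1, a uracil glycosylase, and Idh2, which makes the cosubstrate of the Tet enzymes, gave 1.57 ± 0.21 and 1.29 ± 0.24. Mbd4, a glycosylase of deaminated CpG sites, and Gadd45a, a stress-induced gene linked to demethylation, gave -0.95 ± 0.23 and -1.20 ± 0.35. Without any single control array of either genotype, or inhibitor array 2 or 4, only 0 or 1 of the lower genes passed. Slide or scan day blocks called 4 lower and 3 higher, where they called 11789 and 11045 of all 32308 probes.

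Of 11 readers of methyl-CpG or CpG sites, 0 passed with miR-29b, with a median of 0.17. Closest to the threshold were Cxxc5 (0.93 ± 0.20, limma adjusted p = 0.0589) and Zbtb4 (0.86 ± 0.19, adjusted p = 0.0697), and both passed under a mouse block. They were also higher in the DGCR8-deficient controls than in the wild type (1.54 ± 0.20 and 0.96 ± 0.19), where Zfp57 was lower (-0.59 ± 0.17). That is 2 higher and 1 lower, where 7.99% and 9.09% of all probes were called. The Zfp57 call was lost without any single control array of either genotype or inhibitor array 3, and also with the mouse as a random effect (limma, adjusted p = 0.0959). Slide and scan day blocks called 3 lower each and 4 and 2 higher, where they called 11789 and 11045 of all 32308 probes. Of the germline genes that DNA methylation silences in somatic cells, 8 of 19 on the array were kept, so no count over them speaks for the list. With miR-29b 0 of the 8 passed, and Piwil2, a germline Piwi protein gene, was lower in DGCR8-deficient than in wild-type controls (-2.46 ± 0.53, limma adjusted p = 0.01).

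S-phase genes are the set in which Dnmt1 and Uhrf1 are usually found, since both are made as cells replicate their DNA. With miR-29b all 39 kept genes of this list had a negative difference, from -0.94 to -0.06 with a median of -0.48, against 0.07 over all probes, and 0 of 39 passed (17 fell with the mouse as a block, where 6.86% of all probes did). The Dnmt1 difference of -0.46 lay inside this range, with 20 of the 39 below it, and 37 were below the -0.18 of Uhrf1 probe 1. Among controls 4 of 39 were lower in DGCR8-deficient cells and 0 higher, a share near the 9.09% of all probes called lower, with a median of -0.26 against -0.04 over all probes: Gins3, a replication fork subunit (-1.11 ± 0.16), Dut, which hydrolyses dUTP (-1.24 ± 0.26), Rrm2, a ribonucleotide reductase subunit (-0.92 ± 0.22), and Dbf4, the partner of Cdc7 (-0.74 ± 0.21). Without DGCR8-deficient control 4 or wild-type control 3 the count was 2, and Dbf4 had an adjusted p of 0.0545 with the mouse as a random effect. The count was 10 with a slide block, 11 with a scan day block and 2 in the compared arrays alone, where these settings called 11789, 11045 and 3652 of all probes. Of the 39 genes 2 had a lower value than the -1.09 of Uhrf1 probe 1. In DGCR8-deficient cells with miR-29b 17 of 39 were lower than in wild-type controls, where 10% of all probes were. This count was 9 without the miR-29b array of mouse 4 or wild-type control 2 or 4, 11 without both arrays of mouse 3, 29 with a slide block, 34 with a scan day block and 6 in the compared arrays alone. The slide block, scan day block and compared arrays called 12431, 11904 and 3204 of all probes, against 6123 in the main fit.

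**Figure D4:**
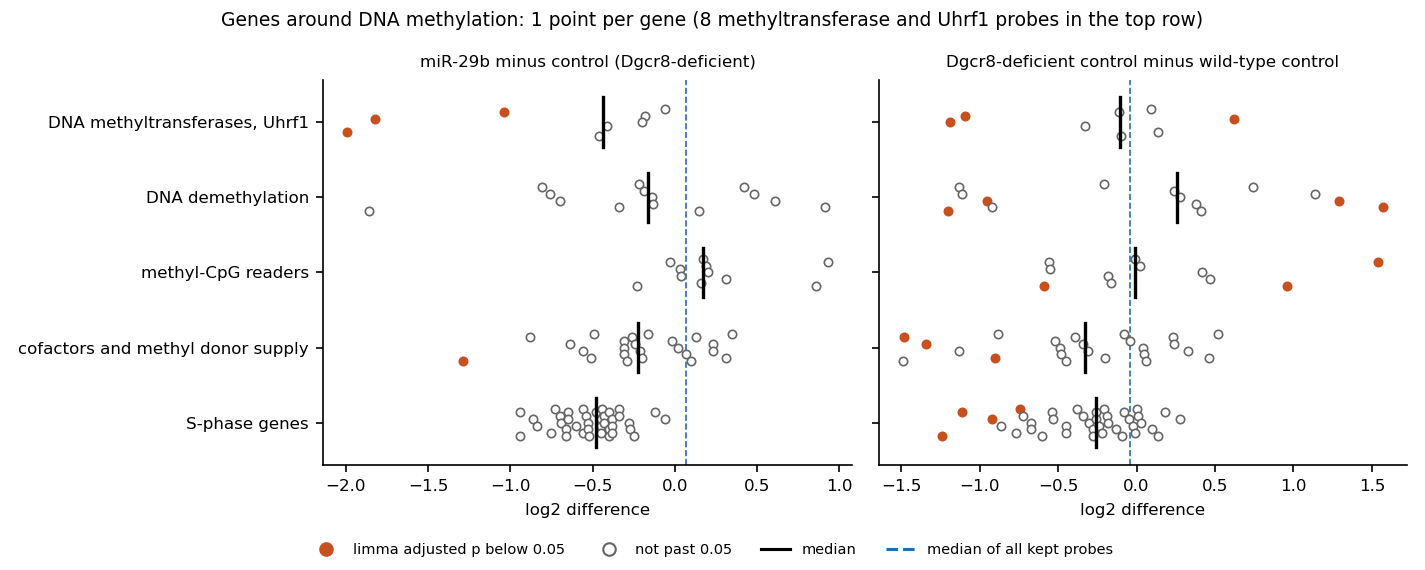
Log2 difference (x axis) of each gene in 4 gene lists, and of the 8 DNA methyltransferase and Uhrf1 probes in the top row, for miR-29b minus control (left) and for the controls of both genotypes (right), with filled symbols for limma adjusted p below 0.05, black bars for medians and a dashed line at the median of all tested probes. All 39 S-phase genes lie below 0 on the left, and none is filled.

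Promoter windows of Dnmt1 and Uhrf1 are shown because these maintenance genes are read here beside S-phase genes, many of which E2F factors control. Each window runs from 250 bases before to 50 after a RefSeq start on GRCm38.p6, 5′ to 3′ on the gene's strand, chr9:20952574-20952873 on the minus strand for Dnmt1 and chr17:56304063-56304362 on the plus strand for Uhrf1. Capitals mark matches to the E2F-type motifs TTTCCCGC, TTTCGCGC, TTTGCCGC and TTTGGCGC, searched on both strands.
Dnmt1: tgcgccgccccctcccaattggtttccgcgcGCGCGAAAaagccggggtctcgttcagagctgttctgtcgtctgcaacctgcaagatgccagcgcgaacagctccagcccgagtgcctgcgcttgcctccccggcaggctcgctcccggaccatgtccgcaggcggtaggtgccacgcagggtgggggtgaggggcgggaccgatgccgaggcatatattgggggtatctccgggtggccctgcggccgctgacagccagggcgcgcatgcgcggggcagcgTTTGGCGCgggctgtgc
Uhrf1: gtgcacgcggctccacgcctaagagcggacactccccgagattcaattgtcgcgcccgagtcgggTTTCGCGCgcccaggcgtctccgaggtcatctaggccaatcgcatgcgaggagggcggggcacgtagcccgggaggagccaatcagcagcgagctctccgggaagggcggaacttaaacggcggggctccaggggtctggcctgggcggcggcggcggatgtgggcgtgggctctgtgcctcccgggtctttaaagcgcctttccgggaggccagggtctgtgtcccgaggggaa
These windows held 2 matches for Dnmt1 and 1 for Uhrf1. They were the only member windows with a match: the other listed starts of Dnmt1 and Uhrf1, and those of Dnmt3a, Dnmt3b and Dnmt3l, held none. A match was found in 2.3% of 32851 promoter windows of the same length. Counted by gene, 2.6% of 27025 genes had a window with a match, as did 12 of the 32 S-phase genes with a window. A match is a run of letters and not a known binding site.

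The genes whose levels ran most like each member over the 12 arrays, by Pearson's r as a description over arrays that share mice, slides and treatments, differed between the members. For Dnmt3b they were Tuba1a (0.981), Ifi30 (0.977) and Rmnd5a (0.977), and for Dnmt3a probe 1 Pex19 (0.987), Blm (0.983) and Psma7 (0.983). Dnmt3a probe 1 and Dnmt3b correlated at 0.909, and the low miR-29b arrays of both enter this value. Dnmt3b ranked 197 among the genes closest to Dnmt3a probe 1, which ranked 95 among those closest to Dnmt3b. For Uhrf1 probe 1 they were Alg6 (0.986), Pmf1 (0.984) and Efcab11 (0.982), for Dnmt1 Ppil2 (0.993), Fbxo42 (0.992) and Eif4g3 (0.989), and for Dnmt3l Aqp2 (0.976), Slc28a3 (0.969) and Hmx1 (0.955). Dnmt1 and Uhrf1 probe 1 correlated at 0.187, and the scan day split of Dnmt1 and the high mouse 3 arrays of Dnmt3l enter these values.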

How the data were processed

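The deposited scanner output gave an intensity for each spot. Per the file headers it came from Agilent Feature Extraction 10.5.1.1 with background removed and no scaling between arrays. A log2 table by the authors, made with limma per the submitters' processing notes (steps not given in the sources used here), served as an alternative. Of its 12 columns 11 correlated best with their own array, and all 12 did once each probe's mean was subtracted. Here log2 of the processed signal was taken, the 75th percentile of the array subtracted, control spots and spots marked as outliers left out, and spots of a probe averaged. Probes well above background on at least 3 of 12 arrays were kept, and RefSeq accessions were matched to symbols (24844 of 41174 probes).

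All 12 arrays entered 1 limma fit of 4 group means (limma 3.58.1, R 4.3.3), with Benjamini-Hochberg adjustment over 32308 probes and a threshold of 0.05. Array number limits the precision. The fit was also run on simulated data with known changes and noise independent between arrays. Those data held no mouse, slide or scan day effect, so the run cannot test the fit for these. The series states that both treatments came from each mouse, and residuals of the 2 arrays of a mouse correlated at 0.468 to 0.811. Equal numbers across genotypes correlated at 0.245, -0.44 and -0.458 and were not paired. The mouse block is a fixed term for comparisons within a genotype, fitted to both genotypes together with a shared spread. Between genotypes, where no mouse has both, it is a random effect (duplicateCorrelation). Alternatives were normexp on the median spot signals, since the files held no mean signal, quantile scaling, other filters, 1 probe per gene, blocks and left-out arrays. The members and gene lists were chosen with earlier results of these data known. Named genes were all member probes, the genes of each list past the threshold in any comparison or else the 2 with the smallest p (at most 4 a list), and the 3 closest genes to each member. Cell type marker genes were named after their values were seen.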

Additional observations from a re-analysis of the deposited data

How the results depend on the processing

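Counts of the 8 probes past the threshold were 3 with miR-29b, 0 with inhibitors, 3 between controls, 5 for miR-29b-treated against wild-type control cells and 2 for the difference between effects. With miR-29b the count was 5 with the mouse as a replicate block, and 0 with the 6 compared arrays alone, without both arrays of DGCR8-deficient mouse 3, or with scan day 1 alone (an alternative chosen after seeing the data). For the difference between effects it was 0 with no filter, without mouse 3 or with scan day 1 alone, 1 with outlier spots kept or with 1 probe per gene, and 0 to 1 without single arrays. Between controls it was 1 with 1 probe per gene or scan day 1 alone, and for treated against wild-type control cells 3 with 1 probe per gene, which tests fewer probes. All probes called with miR-29b numbered 313, against 4232 with the mouse block, 3388 with the slide block, 2533 with the scan day block, 645 in the authors' table, 480 under the strictest filter, 200 with no filter, 15 without mouse 3, 0 in scan day 1 or the compared arrays alone, and 30 to 240 without single arrays. Between controls 5517 became 11789 and 11045 with the slide and scan day blocks, 3652 in the compared arrays alone and 3271 with 1 probe per gene. For treated against wild-type control cells 6123 became 12431, 11904, 3204 and 3670. The difference between effects had 12, against 695, 561 and 414 with the mouse, slide and scan day blocks, 58 in the authors' table, 39 under the strictest filter, 30 with quantile scaling, 25 with 1 probe per gene, 5 with no filter or outlier spots kept, 0 without mouse 3 or in scan day 1 alone, and 0 to 9 without single arrays. Without single arrays the controls had 3668 to 5735. The mouse block moved no other count of the 8 probes by over 1.5 times.

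Values that changed sign were all uncalled (adjusted p in the reported test of 0.67 or more). With normexp these were Dnmt3l (0.02 with miR-29b, -0.11 between controls, -0.08 treated against wild-type control) and Dnmt1 with inhibitors (0.01), which was 0.05 on scan day 1. Dnmt1 between controls was 0.01 with quantile scaling and 0.00 in the authors' table, where treated Dnmt3l was -0.04, and -0.11 with quantile scaling. The slide block gave Dnmt3l -0.29 and -0.35 in the genotype comparisons. Without mouse 3, Dnmt3b between controls was -0.01, Dnmt3l -0.31 and -0.37, and the Uhrf1 effect differences 0.08 and 0.10. Without single arrays, ranges crossing 0 were, for Dnmt1, -1.01 to 0.11 (miR-29b), -0.52 to 0.55 (inhibitors), -0.61 to 0.44 (controls), -1.07 to 0.01 (treated) and -1.02 to 0.13 (difference), for Dnmt3l -0.46 to 0.35, -0.31 to 0.30 (controls), -0.37 to 0.24 (treated) and -0.24 to 0.57 (difference), for Dnmt3a probe 3 -0.21 to 0.09 (inhibitors), for Dnmt3b -0.01 to 0.35 (controls), and for Uhrf1 -0.30 to 0.06 and -0.25 to 0.06 (difference). The cause of these changes was not tested.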
